A study of Mus musculus with 34 samples.

Results

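The comparison was between tracheal brushings taken 6 months (t6) and 2 months (t2) after the end of exposure to NNK, a tobacco-specific nitrosamine that forms DNA adducts. Its members were the 5 libraries labelled t6 and the 5 labelled t2, 10 of the 34 libraries of the series, and it was run over all 14847 genes that passed the filter on low counts. Every mouse in both groups was labelled Gprc5a-/-, the loss of a retinoic acid-inducible receptor of the airway and lung that predisposes mice to lung adenocarcinoma. Each had been injected intraperitoneally with NNK over 8 weeks, 3 injections a week of 50 mg/kg. The labels give an age of 6 to 8 weeks for both groups, and the series design an age of 8 weeks at the start of exposure. The design places lung adenocarcinoma at t6, while the brushed tracheal epithelium itself is called normal. Each library came from a separate mouse. No unexposed mice of the same ages belong to these groups, so age and time since exposure cannot be told apart. In brushings, fewer cells of a type and less RNA per cell cannot be told apart either.

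Airway epithelium is a secretory tissue, and 3 systems recur below. The unfolded protein response senses misfolded protein in the endoplasmic reticulum (ER) and switches on ER chaperones, folding enzymes and the degradation machinery. The heat shock response, driven by Hsf1, does the same for chaperones of the cytosol, nucleus and mitochondria. The circadian clock is a loop in which Arntl with Clock or Npas2 activates Per, Cry and Nr1d genes, whose products act back on it. Its output passes through factors that bind D-box elements, the activators Dbp, Tef and Hlf and the repressor Nfil3.

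Estimated counts summed to between 21232348 and 29514266 per library at t2 and between 24272824 and 37609774 at t6. Library 339 of t2 had 14283 genes above 0 counts, where the other 4 t2 libraries had 17234 to 18088 and the t6 libraries 18050 to 18708. Over all 10 libraries this number differed with an exact permutation p of 0.0238 (two-sided, smallest possible p 0.00794), 0.119 after adjustment over 5 library measures. Levels of the targeted gene Gprc5a were 1.22, 7.7, 1.24, 1.04 and 0.487 CPM at t2 and 0.759, 1.35, 1.51, 0.548 and 0.115 CPM at t6, in the order of libraries t2 334, 339, 347, 358 and 360 and t6 341, 349, 365, 366 and 368. All values per library below follow that order. Library 339 thus stood above every other library for Gprc5a, with 238 counts where the other knockout libraries had 4 to 49. Which part of the gene the deletion removes is not given in the sources used here. The genotype of this library rests on its label alone and is in doubt, so library 339 stands below for the library labelled t2 339, and results are given with and without it. Without it the log2 difference in Gprc5a was -0.22 (adjusted p = 0.85). Haemoglobin genes took 0.695% to 1.76% of counts at t2 and 0.453% to 15.3% at t6, the highest being library 349, and the ribosomal RNA Rn45s took 14.8% in t6 library 365. Both groups held 2 males and 3 females by Xist and Y-linked genes. Defining markers of the airway were present in all libraries: summed over 8 club cell markers, 42428 to 65692 CPM (counts relative to library size, scaled by TMM) at t2 and 34400 to 77366 CPM at t6.

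Of the 14847 genes, 838 (5.64%) differed between t6 and t2 at an adjusted p under 0.05 (edgeR quasi-likelihood test with Benjamini-Hochberg adjustment, 5 against 5 libraries, spread estimated over the 28 knockout libraries). At t6, 265 (1.78%) were higher and 573 (3.86%) lower. The change was at least 2-fold for 89 of the higher and 102 of the lower genes, with a median fold of 1.75 and 1.59. Without library 339, 937 of 14827 genes were called (6.32%), 327 higher (2.21%) and 610 lower (4.11%). Both fits called 612 genes, 73.0% of the first set and 65.3% of the second, all with the same sign. The 5 t6 libraries lay entirely outside the range of the 5 t2 libraries for 520 of the 838 genes, which were picked by the same values, and for 929 of all 14847 (6.26%). Lower genes outnumbered higher ones to a degree that moved with the scaling. Higher genes made up 31.6% of calls with TMM, 38.7% with RLE, 49.2% with upper quartile scaling and 12.6% with library totals alone.

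Genes of the unfolded protein response were lower at t6. Of 26 tested, 10 fell (38.5%, against 3.86% of all genes), none rose and 25 had a negative log2 difference. The list's median was -0.52, where the median of all genes was 0.00. The 10 were the chaperones Hspa5, Hyou1, Sdf2l1, Dnajb11 and Calr, the disulfide isomerases Pdia4 and Pdia6, the folding factor Creld2, the secreted factor Manf and the ubiquitin ligase Syvn1, which marks misfolded ER proteins for degradation. Without library 339 the count was again 10, with another member in the place of Manf. The count was 9 to 11 when each of the 10 libraries was left out in turn. In a fit of the 10 libraries alone 6 were called.

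Hspa5 encodes BiP, the main Hsp70 chaperone of the ER lumen. It stood at 1180.2, 871, 1033, 1315 and 884 CPM at t2 and 323, 396, 488, 356 and 304 CPM at t6. Every t6 library was below every t2 library, and Hspa5 fell by 1.50 on the log2 scale (SE 0.19, adjusted p = 0.0001). Hyou1, a nucleotide exchange partner of Hspa5, stood at 293, 254, 229, 376 and 224 CPM at t2 and 92.8, 124, 110.4, 114 and 98.8 CPM at t6. The groups did not overlap, and it fell by 1.35 on the log2 scale (SE 0.17, adjusted p = 0.0001). Sdf2l1, a cochaperone found in complex with Hspa5, stood at 80.7, 58.5, 75.9, 78.8 and 78.2 CPM at t2 and 26.8, 29.7, 41.2, 41.1 and 23.6 CPM at t6. Library 339 was the lowest of t2 and still above all t6 libraries, and Sdf2l1 fell by 1.20 on the log2 scale (SE 0.20, adjusted p = 0.0027). Creld2, an ER stress-induced folding factor, stood at 85.6, 99.9, 85.98, 116 and 95.4 CPM at t2 and 51.7, 63.4, 69.3, 53.3 and 46.4 CPM at t6, with no overlap, and fell by 0.76 (adjusted p = 0.0029). Syvn1 had its highest level, 158 CPM, in t2 library 334 and ranged from 35.4 to 60.98 CPM at t6. Pdia4 ranged from 197 to 238 CPM at t2 and from 115 to 145 CPM at t6. These 6 genes, with Pdia6, Dnajb11 and Calr, passed the test in all 10 fits that left out a library. Manf did not: its adjusted p of 0.043 rose to as much as 0.11 and missed the threshold without t2 339, t2 358, t6 341, t6 349, t6 366 and t6 368.

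Transcription factors of the signalling arms were not called in the fit of all libraries. Xbp1, the transcription factor spliced by Ire1, had a log2 difference of -0.65 (adjusted p = 0.053). For Atf4 it was -0.24 (adjusted p = 0.52), for Ddit3, the proapoptotic factor CHOP, -0.19 (adjusted p = 0.65), and for Atf6 -0.19 (adjusted p = 0.3). The difference of these 4 from the target genes was not tested. The ER calcium pump Atp2a2, no member of the list, stood at 748, 1041, 804, 738 and 794 CPM at t2 and 413, 396, 408, 454 and 465 CPM at t6 and fell by 0.95 on the log2 scale (SE 0.13, adjusted p = 0.00016). Its groups did not overlap. Mlec, an ER lectin that binds glucosylated glycans, fell by 0.73 (SE 0.10, adjusted p = 0.00054), from 412 to 512 CPM at t2 to 256 to 303 CPM at t6.

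The promoters of these genes are shown because the unfolded protein response acts through a named element, the ER stress response element. Its letters, CCAAT and CCACG with 9 bases of any kind between them, were searched on both strands in windows of 300 bases, from 250 before to 50 after the RefSeq start site nearest the deposited one (GRCm38.p6), found for 11065 of the 14847 genes. The element lay in 17 of all 11065 windows (0.154%), in 8 of the 22 windows of the list and in 5 of the 8 windows of called members: Hspa5, Pdia6, Calr, Creld2 and Syvn1. Here are 2 of them, written 5′ to 3′ along the gene, with the element in capitals. It begins 65 bases before the start site in Hspa5, and in Creld2 it lies on the other strand and begins 126 bases before it.
Hspa5, chr2:34771840-34772139, plus strand: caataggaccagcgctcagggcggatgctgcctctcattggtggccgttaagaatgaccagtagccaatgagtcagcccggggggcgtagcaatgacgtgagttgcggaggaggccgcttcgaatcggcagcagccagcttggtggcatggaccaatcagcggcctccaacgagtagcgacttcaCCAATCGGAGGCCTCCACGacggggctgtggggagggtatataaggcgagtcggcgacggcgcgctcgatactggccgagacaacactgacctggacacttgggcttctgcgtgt
Creld2, chr15:88819396-88819695, plus strand: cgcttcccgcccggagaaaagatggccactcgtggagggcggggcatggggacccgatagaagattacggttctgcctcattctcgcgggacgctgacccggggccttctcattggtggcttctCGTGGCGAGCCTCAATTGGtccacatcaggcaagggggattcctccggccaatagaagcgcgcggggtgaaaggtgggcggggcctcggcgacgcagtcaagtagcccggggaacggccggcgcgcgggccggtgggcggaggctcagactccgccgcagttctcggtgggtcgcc
A match is a string of letters in a window and was not shown to be bound here. The list holds genes known for this response, so its share of matches says nothing about the change from t2 to t6. Both limits hold for the elements searched below.

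**Figure D1:**
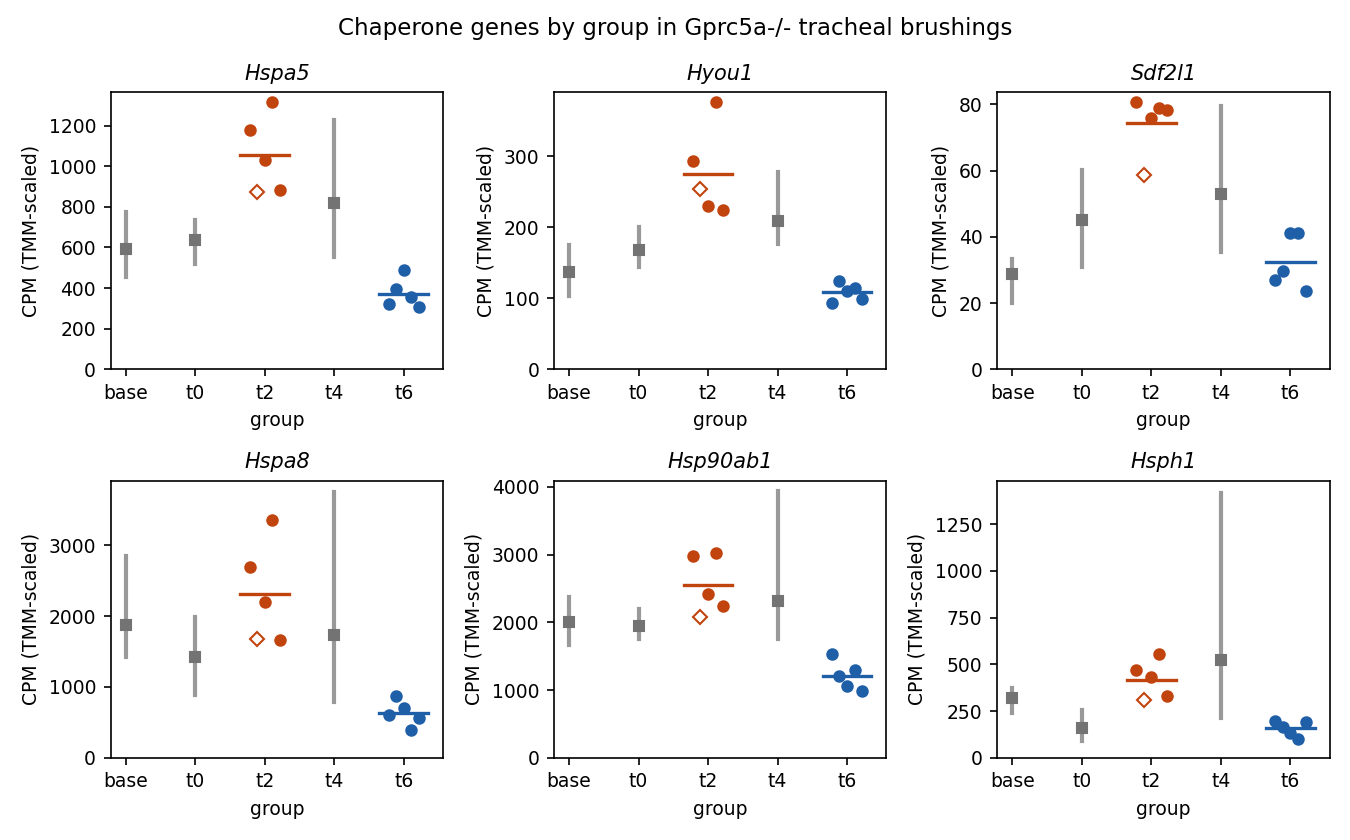
Levels of 6 chaperone genes in CPM (TMM-scaled, axis from 0) by group. Points are the 5 t2 and 5 t6 libraries, with t2 library 339 as an open diamond and a line at the mean; grey squares and bars are the mean and range of the other groups (6 libraries each). All t6 points lie below all t2 points in each panel, and the t4 range of Hsph1 reaches above both.

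Cytosolic and mitochondrial chaperones of the heat shock list were lower at t6 as well. Of 20 tested, 7 fell (35.0%, against 3.86%) and none rose, and 19 had a negative log2 difference with a median of -1.01. The 7 were the constitutive Hsp70 Hspa8, the constitutive Hsp90 Hsp90ab1, the Hsp90 cochaperones Fkbp4 and Stip1, the Hsp110 Hsph1, the mitochondrial chaperonin Hspd1 and the Hsp70 cochaperone Bag3. The count was 7 without library 339, but Hspd1 and Bag3 were not among these and other members took their place. The count went down to 4 without t2 358, t6 365 or t6 366 and up to 9 without t2 360. With RLE or upper quartile scaling it was 5.

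Hspa8 stood at 2696, 1682, 2199, 3357 and 1656 CPM at t2 and 607, 872, 708, 393 and 567 CPM at t6. The lowest t2 library, 360, was above the highest t6 library, 349, and Hspa8 fell by 1.88 on the log2 scale (SE 0.31, adjusted p = 0.0018). Hsp90ab1 stood at 2975, 2073, 2424, 3024 and 2237 CPM at t2 and 1527, 1210.5, 1063, 1290.2 and 984 CPM at t6, again with no overlap, and fell by 1.07 on the log2 scale (SE 0.19, adjusted p = 0.0029). Fkbp4, an immunophilin that links Hsp90 to steroid receptors, stood at 473, 272, 304, 590.0 and 337 CPM at t2 and 149.6, 229.9, 205, 181 and 124 CPM at t6 and fell by 1.15 (adjusted p = 0.004). Libraries 334 and 358, the 2 males of t2, were the 2 highest of t2 for Hspa8, Hsp90ab1, Fkbp4 and Hsph1. Stip1, which bridges Hsp70 and Hsp90, stood at 295, 266, 236, 351 and 231 CPM at t2 and 152, 158, 141, 117 and 142 CPM at t6 and fell by 0.96 (adjusted p = 0.013). Hsph1 stood at 469.6, 308, 430.4, 556 and 328 CPM at t2 and 198, 163, 132, 103 and 189.6 CPM at t6. Its groups did not overlap, and it fell by 1.41 (adjusted p = 0.022), but missed the threshold without t2 358, t6 365 and t6 366 (adjusted p up to 0.061). Hspd1 fell by 1.15 (adjusted p = 0.047) and Bag3 by 1.35 (adjusted p = 0.05). Hspd1 lost its call without t2 334, t2 339, t2 358, t6 341, t6 349, t6 365, t6 366 and t6 368 (adjusted p up to 0.11), and Bag3 without the same 8 libraries (adjusted p up to 0.12). The groups of both genes did not overlap.

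The inducible members Hspa1b, Hspa1a and Hsp90aa1, and Hsf1, were not called in the fit of all libraries. Hspa1b stood at 819, 213, 97.9, 619 and 156 CPM at t2 and 22.2, 111, 154, 49.4 and 40 CPM at t6, a log2 difference of -2.34 (adjusted p = 0.08). Hspa1a, its near-identical copy, with which it may share reads, differed by -1.62 (adjusted p = 0.18). Within t2, libraries 334 and 358 were the highest for both. Hsp90aa1, the inducible Hsp90, stood at 1192, 1378, 1544, 1445 and 1234 CPM at t2 and 1127, 883, 566, 551 and 1153 CPM at t6 (log2 difference -0.67, adjusted p = 0.2). Hsf1, the heat shock transcription factor, differed by -0.49 (adjusted p = 0.097), and by -0.64 without library 339 (adjusted p = 0.02).

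Heat shock elements are alternating GAA and TTC units. Among the 11065 windows, GAANNTTC was present in 637 (5.76%) and TTCNNGAA in 777 (7.02%); each of these letter strings reads the same on both strands, and they can overlap each other. Of the 15 windows found for the heat shock list, 11 held the first and 5 the second. Among the 5 windows of called members, 4 held the first (Hsph1, Hspd1, Bag3 and Fkbp4) and 2 the second. Hsph1 and Hspd1 are shown for their runs of adjoining units, in capitals.
Hsph1, chr5:149636266-149636565, minus strand: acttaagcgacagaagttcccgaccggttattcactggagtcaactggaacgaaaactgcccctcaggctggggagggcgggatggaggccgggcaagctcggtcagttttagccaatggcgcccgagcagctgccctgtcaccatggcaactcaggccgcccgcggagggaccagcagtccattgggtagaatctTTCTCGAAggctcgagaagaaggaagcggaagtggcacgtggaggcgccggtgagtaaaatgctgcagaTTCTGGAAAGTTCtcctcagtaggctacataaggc
Hspd1, chr1:55087883-55088182, minus strand: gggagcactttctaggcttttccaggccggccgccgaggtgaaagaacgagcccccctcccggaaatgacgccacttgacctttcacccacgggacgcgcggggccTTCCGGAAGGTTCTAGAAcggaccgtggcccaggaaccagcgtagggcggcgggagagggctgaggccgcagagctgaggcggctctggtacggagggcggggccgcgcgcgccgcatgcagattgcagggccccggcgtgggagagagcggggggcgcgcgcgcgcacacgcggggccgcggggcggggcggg
In Hspd1 the run spans both strings and begins 144 bases before the start site. In Hsph1 one run begins 54 bases before the start site and another at base 16, the start site being base 1.

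Both chaperone groups were also set against the other time points. Before exposure Hspa5 averaged 591 CPM, and in the groups from t0 to t6 its means were 636, 1057, 818 and 373 CPM. For Hspa8 the same 5 means were 1872, 1419, 2318, 1738 and 629 CPM. Both means were thus highest at t2 and lowest at t6. Summed over the heat shock list, libraries ranged from 7257 to 12054 CPM at t2, 5082 to 22637 CPM at t4, 3444 to 4492 CPM at t6 and 7295 to 10490 CPM before exposure. The t6 libraries lay below the lowest library of each of these groups. The unfolded protein response list summed to 5259 to 7269 CPM at t2, 4413 to 6569 CPM at t4, 3578 to 4302 CPM at t6 and 4041 to 5520 CPM before exposure, so that t6 overlapped the unexposed libraries and neither t2 nor t4. No test was run on these sums.

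Gene families of protein production and secretion were looked at after their members had been seen among the calls, so their counts are descriptions. Of 86 ribosome biogenesis genes tested, 19 fell (22.1%, against 3.86% of all genes) and none rose (median -0.40), and of 20 cytosolic aminoacyl-tRNA synthetases 9 fell (45.0%) and none rose (median -0.47). Of 31 genes of the ER translocon and the COPII coat 7 fell (22.6%, against the same 3.86%), and of 13 tubulins 4 fell (30.8%). The synthetase count was 1 without t2 358 or t6 341, 3 without t6 368 and 5 without t2 334 or t6 349, and it went up to 10 without t2 360. The ribosome biogenesis count ranged from 11 (without t2 358) to 24 (without t2 347), with 12 without t6 341. The COPII and translocon count was 3 without either of these 2 libraries.

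Bop1, which processes the large ribosomal subunit, stood at 56.1, 50.8, 43.8, 70.1 and 45.4 CPM at t2 and 23.6, 30.3, 36.03, 30.4 and 24.7 CPM at t6 and fell by 0.88 on the log2 scale (SE 0.15, adjusted p = 0.0029). Bysl, needed for the small subunit, stood at 36.7, 28.9, 21.9, 39.3 and 25.1 CPM at t2 and 9.47, 15.9, 15.1, 14.8 and 10.7 CPM at t6 and fell by 1.20 on the log2 scale (SE 0.21, adjusted p = 0.0029). Neither gene overlapped between groups. Tars, the threonyl-tRNA synthetase, stood at 65.6, 68.2, 61.2, 83.2 and 51.9 CPM at t2 and 32.6, 37.8, 44.6, 44.03 and 32.1 CPM at t6 and fell by 0.79 (adjusted p = 0.003). Sec31a, an outer COPII coat protein, fell by 0.67 (adjusted p = 0.0027), and its partner in cargo selection Sec24d by 0.64 (adjusted p = 0.0077). Tubb5, a beta-tubulin, stood at 283, 226, 242, 374 and 238 CPM at t2 and 113, 147, 145, 136 and 115 CPM at t6 and fell by 1.06 on the log2 scale (SE 0.15, adjusted p = 0.00054). Tubb2a fell by 1.59 (adjusted p = 0.004), with reads that may be shared with its near-identical copy Tubb2b. Structural genes of the ribosome did not follow: of 68 cytosolic ribosomal protein genes 2 rose and none fell (median 0.21), against 1.78% of all genes higher, and 1 rose without t2 334, t2 358 or t6 365. Rpl9 stood at 202, 237, 162, 201 and 214 CPM at t2 and 295, 290.0, 339, 356 and 365 CPM at t6 and rose by 0.69 (adjusted p = 0.017), although processed pseudogenes of such genes can share their reads.

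Clock genes moved in both directions. Of 20 tested, 4 rose (Per3, Dbp, Nr1d2 and Rora; 20%, against 1.78%) and 4 fell (Nfil3, Npas2, Cry1 and Arntl; 20%, against 3.86%). Without library 339 the counts were 4 and 3, Arntl being lost, and over the 10 fits that left out 1 library 3 to 6 rose and 2 to 4 fell. The highest count of rises, 6, came without t2 360, and 2 falls were called without t2 358, t6 341 or t6 365.

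Dbp, a D-box activator, had the largest called difference in the list. It stood at 2.55, 0.55, 4.06, 2.56 and 10.5 CPM at t2 and 37.5, 69.6, 61.1, 35.2 and 19.1 CPM at t6. All 5 t6 libraries were above all t2 libraries, and it rose by 3.47 on the log2 scale (SE 0.65, adjusted p = 0.004). Per3, a period gene, stood at 30.6, 16.1, 29.8, 25.7 and 48.3 CPM at t2 and 95.6, 121, 95.8, 67.7 and 69.9 CPM at t6, with no overlap, and rose by 1.58 on the log2 scale (SE 0.29, adjusted p = 0.0037). Nr1d2, the repressor REV-ERB beta, stood at 25.95, 38.2, 28.4, 29.3 and 43.9 CPM at t2 and 98.7, 79.05, 69.1, 57.9 and 81.1 CPM at t6, with no overlap, and rose by 1.22 on the log2 scale (SE 0.27, adjusted p = 0.0099). Rora, an activator of Arntl, rose by 0.57 (adjusted p = 0.039) but lost its call without t2 334, t2 347, t2 358, t6 341, t6 366 and t6 368 (adjusted p up to 0.11). Nfil3, the D-box repressor, went the other way. It stood at 71.5, 59.6, 53.6, 79.1 and 30.3 CPM at t2 and 14.2, 11.01, 18.3, 18.7 and 25.9 CPM at t6, the highest t6 library lying under the lowest of t2, and fell by 1.74 on the log2 scale (SE 0.31, adjusted p = 0.0029). Npas2, a partner of Arntl, stood at 63.9, 29.4, 61.3, 59.8 and 45.4 CPM at t2 and 24.5, 16.6, 14.7, 33.4 and 29.9 CPM at t6 and fell by 1.13 (adjusted p = 0.012); t2 library 339 lay within the t6 range. Cry1, a repressor, fell by 0.73 (adjusted p = 0.023), which it missed without t2 358, t6 341, t6 365 and t6 368 (adjusted p up to 0.061). Arntl, the core activator BMAL1, stood at 28.6, 56.3, 25.3, 30.8 and 21.8 CPM at t2 and 15.9, 7.07, 10.4, 17.8 and 26.1 CPM at t6 and fell by 1.08 (adjusted p = 0.034). It was called neither without library 339, where it fell by 0.79 (adjusted p = 0.097), nor without t2 358, t6 341, t6 349 or t6 365.

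Other members of the loop did not pass. Nr1d1, the REV-ERB alpha gene, stood at 73.9, 90.9, 84.98, 93.98 and 197 CPM at t2 and 169.8, 196, 219.9, 221 and 74.1 CPM at t6, and t2 library 360 and t6 library 368 each lay within the other group's range (log2 difference 0.70, adjusted p = 0.18). Those 2 libraries were also the nearest to the other group for Dbp, Tef and Nfil3. For Tef the difference was 0.76 (adjusted p = 0.059), for Hlf 0.51 (adjusted p = 0.081), for Per1 -0.08 (adjusted p = 0.86), for Per2 -0.17 (adjusted p = 0.69) and for Clock -0.14 (adjusted p = 0.62). Before exposure Dbp averaged 18.98 CPM and Per3 59.03 CPM. At t4 these were 17.9 and 67.8 CPM, values that lie between t2 and t6. The hour of collection is not given in the sources used here, and its part in these differences was not tested.

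Elements of the clock were searched in the same windows on both strands. The E-box CACGTG, bound by Arntl with its partners, lay in 1076 of 11065 windows (9.72%), in 5 of 17 windows of the clock list and in 1 of the 8 called members, Cry1. Of the D-box forms, TTATGTAA lay in 62 of all windows (0.56%) and, in the list, in Per3 alone, where it occurs 2 times, 205 and 158 bases before the start site. TTACGTAA lay in 15 of all windows (0.136%) and in none of the list. Per3 and Cry1 are shown with these elements in capitals.
Per3, chr4:151044616-151044915, minus strand: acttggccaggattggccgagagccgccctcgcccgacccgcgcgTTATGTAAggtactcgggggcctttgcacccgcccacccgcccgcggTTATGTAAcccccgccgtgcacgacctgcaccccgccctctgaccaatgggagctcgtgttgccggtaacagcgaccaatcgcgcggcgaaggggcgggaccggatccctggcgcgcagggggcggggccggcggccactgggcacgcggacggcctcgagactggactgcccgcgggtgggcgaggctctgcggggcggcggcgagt
Cry1, chr10:85185005-85185304, minus strand: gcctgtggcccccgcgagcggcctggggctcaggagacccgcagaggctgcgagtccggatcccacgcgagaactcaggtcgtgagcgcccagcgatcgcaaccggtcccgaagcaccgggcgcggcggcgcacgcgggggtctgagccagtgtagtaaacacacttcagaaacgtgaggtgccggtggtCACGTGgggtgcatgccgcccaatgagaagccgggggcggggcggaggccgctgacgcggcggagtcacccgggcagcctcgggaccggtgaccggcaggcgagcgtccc

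**Figure D2:**
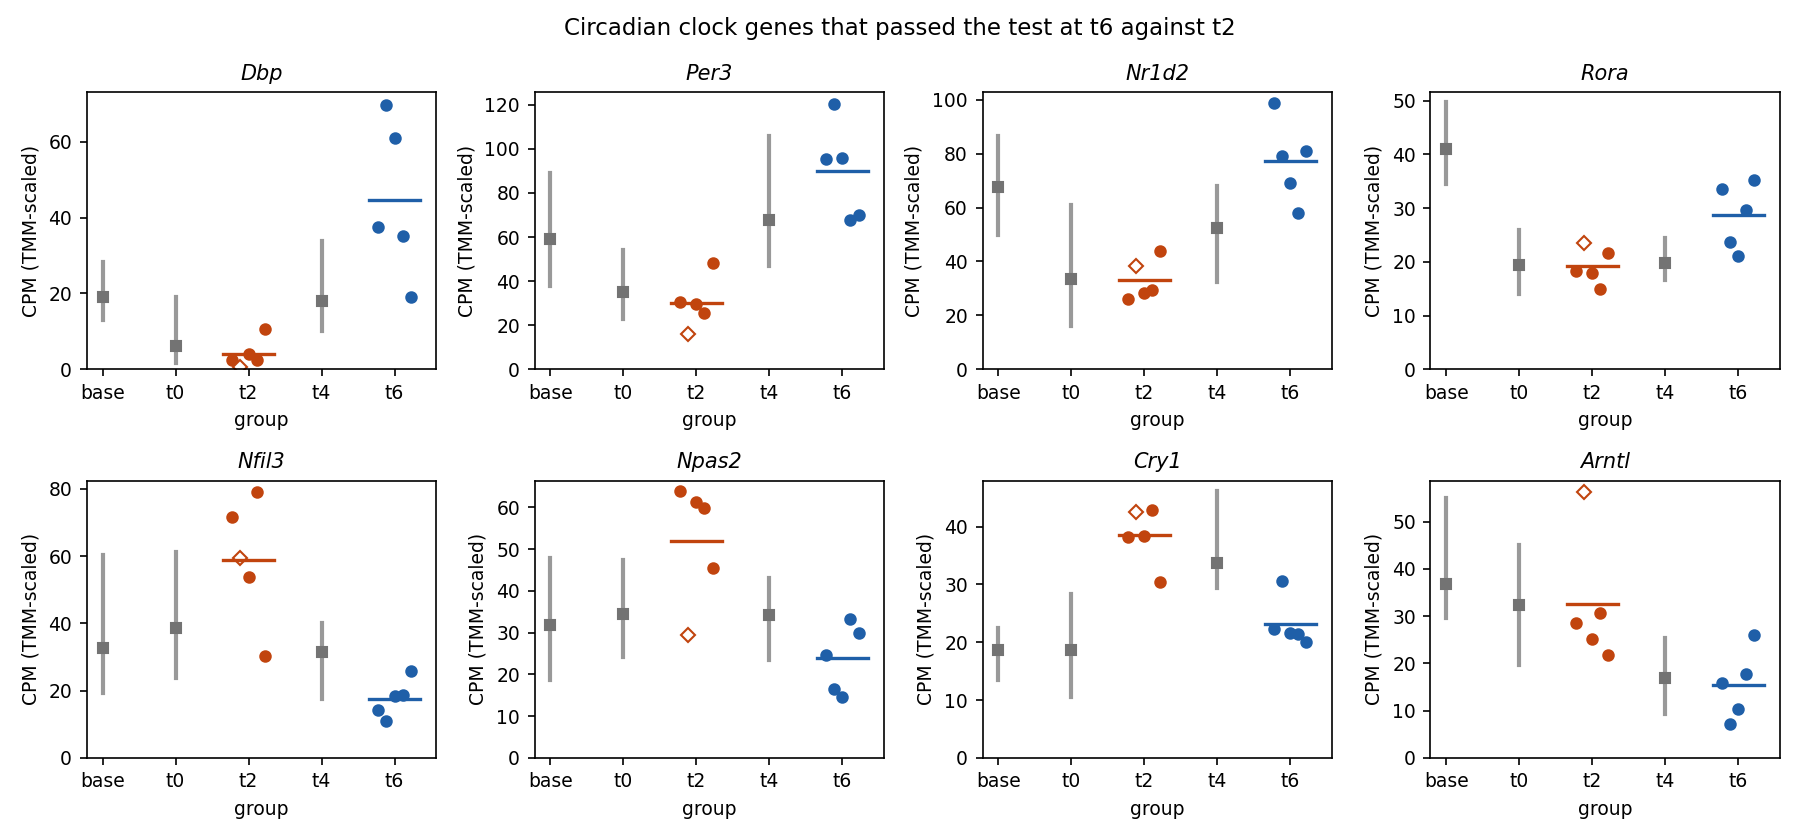
Levels of the 8 clock genes that passed the test, in CPM (TMM-scaled, axis from 0) by group, drawn as in the plot of chaperones. Dbp, Per3, Nr1d2 and Rora are higher at t6 than at t2, and Nfil3, Npas2, Cry1 and Arntl lower; the open diamond of library 339 is the highest t2 value of Arntl.

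Cytokine-related genes that passed the test were lower at t6. Of 16 STAT3 targets 4 fell (Bcl3, Il4ra, Stat3 and Il6st; 25.0%, against 3.86% of all genes) and none rose, with 2 called without t2 358 or t6 341. Of 21 NF-kB and cytokine genes 3 fell (Bcl3, Icam1 and Nfkb1; 14.3%) and none rose, with 2 called without t6 341 or t6 368. Bcl3 counts in both lists. Bcl3, a nuclear I-kappa-B protein, stood at 111, 61.5, 44.4, 127 and 62.4 CPM at t2 and 15.1, 34.2, 35.9, 23.3 and 18.5 CPM at t6 and fell by 1.68 on the log2 scale (SE 0.35, adjusted p = 0.0081). Icam1, an adhesion molecule for leukocytes, stood at 249, 99.6, 114, 169 and 103 CPM at t2 and 61.5, 70.2, 88.5, 53.98 and 58.8 CPM at t6 and fell by 1.14 (adjusted p = 0.011). The groups overlapped for neither. Il4ra, the receptor chain for interleukins of type 2 inflammation, stood at 137, 103, 88.1, 156 and 84.6 CPM at t2 and 41.03, 61.98, 63.4, 65.2 and 67.9 CPM at t6 and fell by 0.93 (adjusted p = 0.011). Stat3 fell by 0.57 (adjusted p = 0.016) and lost its call without t2 358 and t6 341 (adjusted p up to 0.065).

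Of 35 interferon response genes 6 fell (17.1%, against 3.86% of all genes) and none rose (median -0.40). Without library 339, 2 of the 35 were called lower, where 4.11% of all genes were. Stat2, a transducer of type I interferon signals, stood at 76.1, 131, 67.2, 64.5 and 126 CPM at t2 and 49.1, 46.4, 41.04, 35.9 and 41.5 CPM at t6 and fell by 1.12 on the log2 scale (SE 0.21, adjusted p = 0.004). Its partner Irf9 stood at 86.97, 183, 91.8, 92.8 and 135 CPM at t2 and 73.9, 66.7, 70.5, 43.9 and 73.9 CPM at t6 and fell by 0.84 (adjusted p = 0.0088). Library 339 was the highest library for both, and both were called without it. Bst2, Dhx58, Oas1a and Oas2 were the 4 called only with it. The count was also 2 without t2 360 or t6 366, and 3 without t6 349. In the fit of all libraries, marker lists of leukocytes held no lower call. None was called of 25 macrophage and monocyte genes, 22 T and NK cell genes, 11 neutrophil genes and 14 dendritic cell genes. Of 16 B and plasma cell genes 1 was called (Cd79b, higher). Over all genes 5.64% were called, a share at which lists this short may hold no call. The medians of these lists, in the same order, were 0.35, 0.58, 0.72, 0.56 and 0.80, against 0.00 for all genes. Without library 339, 1 macrophage and monocyte gene and 2 B and plasma cell genes were called higher, where 2.21% of all genes were. Some fits that left out another library called 1 dendritic cell gene or 1 B and plasma cell gene lower.

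Cell cycle genes were lower at t6 where they were called. Of 38 tested, 5 fell (13.2%, against 3.86% of all genes) and none rose (median -0.62). Without library 339 the count was 7, where 4.11% of all genes were lower, and without t2 339, t6 349 and t6 365 together it was 2. Ccnd1, the G1 cyclin, stood at 462, 536, 424, 712 and 629 CPM at t2 and 238, 414, 314, 243 and 220.2 CPM at t6 and fell by 0.95 on the log2 scale (SE 0.18, adjusted p = 0.0047). E2f1, a transcription factor of S phase entry, stood at 2.05, 8.96, 2.99, 2.34 and 7.3 CPM at t2 and 0.94, 1.56, 1.17, 1 and 1.84 CPM at t6 and fell by 1.86 (adjusted p = 0.011). Both had non-overlapping groups. Gins2, a subunit of the replicative helicase, fell by 1.72 (adjusted p = 0.013), but library 339 was at 24.9 CPM, above a range of 3.65 to 8.98 CPM in the rest of t2, and without it the adjusted p was 0.053. Cdkn1a, the p53 target p21, fell by 0.81 (adjusted p = 0.048) and lost its call in 8 of 10 fits that left out a library, t2 334, t2 339, t2 358, t2 360, t6 341, t6 349, t6 365 and t6 368 (adjusted p up to 0.12). Aen, a p53-induced nuclease, stood at 87.96, 109, 53.6, 78.98 and 70.3 CPM at t2 and 30.8, 40.2, 46.1, 47.5 and 25.9 CPM at t6 and fell by 1.07 (adjusted p = 0.011). Of 28 p53 targets these and Gtse1 were the only calls (10.7% lower, against 3.86% of all genes). Without library 339, 2 were called lower and 2 higher. With that library kept, 1 was called higher without t2 347, without t6 366 or with RLE scaling. The number was 2 with upper quartile scaling or DESeq2. The single direction thus did not hold in every fit. Gmnn, which blocks relicensing of replication origins and is no member of the list, stood at 5.28, 9.93, 6.09, 3.86 and 9.42 CPM at t2 and 22.7, 12.4, 18.5, 18.3 and 18.02 CPM at t6 and rose by 1.38 on the log2 scale (SE 0.26, adjusted p = 0.0044).

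Of 21 genes of EGFR ligands and RAS feedback 2 fell (9.52%, against 3.86% of all genes) and none rose. Etv5, a transcription factor downstream of RAS and ERK, stood at 13.5, 8.31, 9.94, 17.1 and 7.52 CPM at t2 and 2.13, 4.93, 2.15, 2.71 and 3.13 CPM at t6 and fell by 1.91 on the log2 scale (SE 0.40, adjusted p = 0.0079), with no overlap. Nrg1, a ligand of ERBB3, stood at 7.68, 20.2, 4.26, 12.5 and 2.96 CPM at t2 and 1.01, 3.79, 1.78, 1.89 and 1.21 CPM at t6; it fell by 2.29 (adjusted p = 0.014), and t2 library 360 lay within the t6 range. Both were called in all 10 fits that left out a library. Timp3, an inhibitor of metalloproteases and of the shedding of such ligands, stood at 465, 393, 383, 567 and 249 CPM at t2 and 123, 227, 88.2, 107 and 82.2 CPM at t6 and fell by 1.71 on the log2 scale (SE 0.36, adjusted p = 0.0079). Its groups did not overlap.

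Cyp2a5 was the 1 called gene of 19 club cell genes and of 30 phase I enzymes. It is the mouse enzyme that metabolises nicotine and nitrosamines such as NNK in the airway. It stood at 2562, 2323, 2028, 2731 and 2519 CPM at t2 and 4969.7, 5165, 7450.5, 6070.2 and 3321 CPM at t6, with no overlap, and rose by 1.15 on the log2 scale (SE 0.25, adjusted p = 0.0093), but was not called without t2 339, t6 349 and t6 365 together (adjusted p = 0.0569). The 1 call was 5.26% of the club cell list and 3.33% of the phase I list, against 1.78% of all genes higher. Before exposure it averaged 7794 CPM, at t0 3577 CPM and at t4 3608 CPM, so t6 lay nearer to the unexposed mean than t2 or t4 did. Reads may be shared with close Cyp2a copies. Of 30 phase II enzymes none was called, where 5.64% of all genes were. Nqo1, a quinone reductase and target of NRF2, rose by 1.05 (adjusted p = 0.039) but not without t2 334, t2 339, t2 358, t2 360, t6 341, t6 365 and t6 366 (adjusted p up to 0.098). Insig1, the ER anchor of sterol sensing, rose by 0.71 (adjusted p = 0.034) and lost its call without t2 334, t2 339, t2 358, t2 360, t6 341 and t6 368 (adjusted p up to 0.12). Uqcrh, a subunit of respiratory complex III, stood at 70.7, 69.5, 53.3, 78.8 and 82.8 CPM at t2 and 100.04, 105, 123, 110.2 and 101 CPM at t6 and rose by 0.60 (adjusted p = 0.013). With it, 4 of 56 respiratory chain genes rose (7.14%, against 1.78% of all genes) and 1 fell (1.79%, against 3.86%), but 1 and 0 were called without library 339, and 1 rose without t2 334, t6 341 or t6 365.

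Among all higher genes the smallest p values belonged to Hpse, Fut8, Per3, Camk2n1 and Dbp. Hpse, the heparan sulfate-cleaving heparanase, stood at 20.5, 13.1, 18.2, 19.2 and 23.1 CPM at t2 and 38.5, 31.8, 40.2, 35.7 and 51.1 CPM at t6 and rose by 1.07 on the log2 scale (SE 0.16, adjusted p = 0.00071). Fut8, which adds core fucose to N-glycans, stood at 21.96, 22.6, 32.1, 29.8 and 32.5 CPM at t2 and 52.2, 44.4, 51.6, 46.2 and 66.8 CPM at t6 and rose by 0.91 on the log2 scale (SE 0.14, adjusted p = 0.00085). Camk2n1, an inhibitor of CaM kinase II, stood at 69.9, 59.97, 55.8, 67.7 and 77.5 CPM at t2 and 103, 119.9, 96.2, 94.4 and 94.6 CPM at t6 and rose by 0.62 (adjusted p = 0.004). The groups overlapped for none of these. Nfe2l3, a cap'n'collar transcription factor, rose by 1.23 (adjusted p = 0.0044), from 5.31 to 8.13 CPM to 9.39 to 20.5 CPM. Dkk3, of the Dickkopf family, stood at 18.7, 15.5, 24, 13.99 and 22.6 CPM at t2 and 35.4, 24.1, 44.2, 51.7 and 85.1 CPM at t6 and rose by 1.34 on the log2 scale (SE 0.30, adjusted p = 0.0099).

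Many of the largest called differences rested on few libraries. Dbp, given above, and Kcnj15, an inward rectifier potassium channel, did not. Kcnj15 stood at 219, 79.7, 96.4, 124 and 66.2 CPM at t2 and 25.1, 16.9, 3.72, 8.19 and 16.99 CPM at t6, with no overlap, and fell by 3.04 on the log2 scale (SE 0.54, adjusted p = 0.003); it was called in all 10 fits that left out a library. Chil4, a chitinase-like protein of type 2 inflammation, stood at 1173, 14.4, 158, 168 and 41.3 CPM at t2 and 7.3, 5.78, 1.97, 0.852 and 1.03 CPM at t6. It fell by 6.53 (adjusted p = 0.04), with t2 library 334 far above the rest, and the adjusted p was up to 0.1 without t2 334, t2 358, t6 341, t6 349, t6 365, t6 366 and t6 368. Reads may be shared with its close copy Chil3. Cxcl1, a neutrophil chemokine, stood at 24.4, 0.129, 1.55, 3.9 and 0.708 CPM at t2 and 0.253, 0.0306, 0.615, 0.304 and 0.66 CPM at t6 and Sprr3, a cornified envelope protein, at 1.79, 7.31, 0.138, 2.08 and 0.708 CPM at t2 and 0.217, 0.306, 0.0923, 0.152 and 0.201 CPM at t6. Cxcl1 fell by 4.02 (adjusted p = 0.042) and lost its call without t2 334, t2 358, t6 341, t6 349, t6 365, t6 366 and t6 368 (adjusted p up to 0.25), and Sprr3 fell by 3.61 (adjusted p = 0.014) and, without library 339, fell by 2.58. Fibin was at 17.7 CPM in library 339 and at most 1.20 CPM in the rest of t2, and was not tested without it.

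On the higher side, Awat1, a wax synthase, had no count in any t2 library and 61 counts over 4 t6 libraries. Set against a floor of 3 counts over the whole t2 group, the pooled t6 level was 17.2-fold higher. This figure leaves out the spread between mice. Ucp1, the uncoupling protein of brown fat, stood at 0.152, 0, 0, 0 and 0.221 CPM at t2 and 0.398, 0.184, 13.7, 1.98 and 4.19 CPM at t6; its adjusted p was 0.014, and t6 library 349 lay within the t2 range. Upk3b, a uroplakin of mesothelium and urothelium, was at 12.9 CPM in t6 library 368 and at most 0.26 CPM at t2, and lost its call without that library (adjusted p = 0.87) and without any t2 library. Cyp2c65, a cytochrome P450, was highest in the same library at 1.92 CPM and lost its call without t2 339, t2 347, t2 358, t2 360, t6 349 and t6 368 (adjusted p up to 0.18). Of 14 adipocyte genes Ucp1 alone was called, 7.14% of the list against 1.78% of all genes higher. The list summed to 257 to 702 CPM at t2 and 316 to 1479.8 CPM at t6. None of its 8 defining markers was at 0 in all 10 libraries. The part of such tissue in these values was not tested.

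Few genes of the cell type lists of the brushing were called. Over all genes 5.64% were, a share at which lists this short may hold no call. None was called of 20 basal cell genes (median -0.26), 19 goblet cell and mucin genes (median 0.03), 13 tuft cell genes (median -0.61, 13 of 13 below 0) and 17 neuroendocrine genes (median -0.41, 12 below 0). Without library 339, 1 neuroendocrine gene was called lower. Of 12 ionocyte genes 1 was called, Stap1, higher (median 0.55), which was 8.33% of the list against 1.78% of all genes higher. No ionocyte gene was called higher in some fits that left out a library, or in the fit of the 10 libraries alone. With library totals alone none was called higher and 1 lower. Of 34 ciliated cell genes 2 fell, Tubb4b and Mcidas, and none rose (median 0.16); this was 5.88%, close to the 3.86% of all genes, and 3 fell without library 339. Lists of neighbouring tissue varied between libraries: skeletal muscle genes summed to 194 to 2581 CPM at t2 and 63.6 to 3055 CPM at t6, thyroid genes to 18.4 to 36.9 and 20.2 to 226 CPM, and erythroid genes to 6920.1 to 17587 and 5338 to 172550.0 CPM. None of the 27 muscle, 8 thyroid or 18 erythroid genes was called, with medians of 0.87, 0.43 and 1.89.

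**Figure D3:**
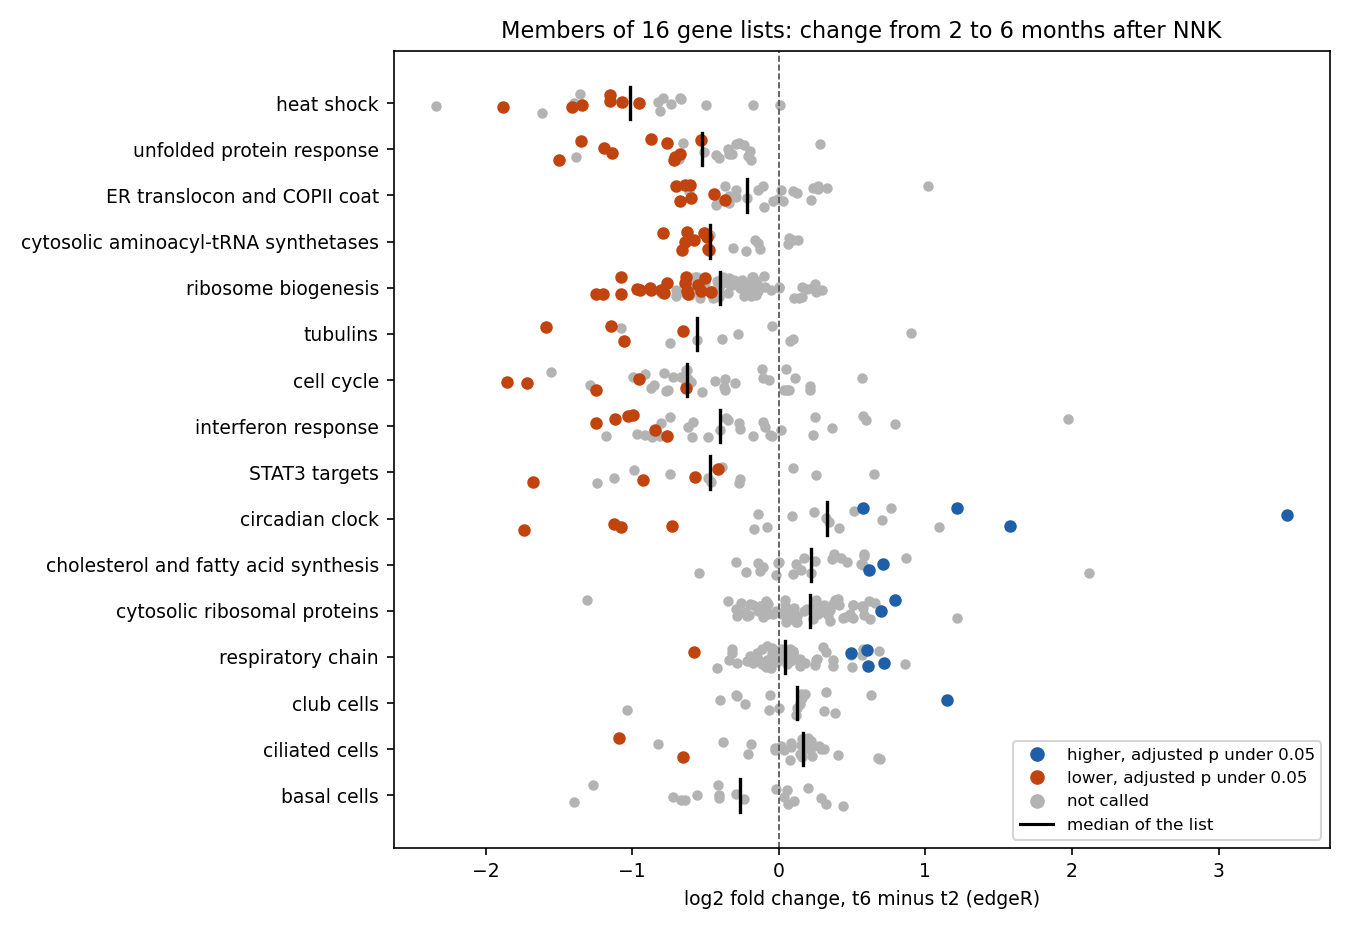
Log2 fold change (t6 minus t2, edgeR) of the tested members of 16 gene lists, 1 point a gene; blue and red points passed the test, grey ones did not, and black bars are medians. Heat shock and unfolded protein response members lie to the left, with medians of -1.01 and -0.52, and clock genes lie on both sides.

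The t4 libraries, taken 4 months after exposure, had no weight in the contrast t6 minus t2. They did take part in the filter, the scaling and the estimate of spread, and so in the choice of called genes. For 778 of the 838 called genes (92.8%) the t4 mean (log2 CPM) lay between those of t2 and t6, 360 nearer t6 and 418 nearer t2. Over all 14847 genes it lay between them for 46.8%. Called genes have t2 and t6 means further apart, which leaves more room between them, so the 2 shares are given without a test. The mean before exposure was nearer to t6 than to t2 for 588 called genes (70.2%) and for 60.7% of all genes. Without library 339 the t4 mean lay between for 852 of 937 called genes.

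Library 339 decided many single calls. Of the 838 genes 226 lost their call without it, 1 of them no longer tested, and 325 others gained one. Lost genes with the smallest p were Gins2, Hr and Alg8. Hr, a nuclear receptor corepressor, was at 83.8 CPM in library 339 and 18.1 to 29.1 CPM in the rest of t2. Alg8, a glucosyltransferase of N-glycan assembly, was at 44.1 CPM and 7.6 to 16.5 CPM. Their adjusted p went from 0.015 to 0.062 and from 0.016 to 0.068. In the other direction, Gnpda2 rose by 1.26 without it (adjusted p = 0.0026) and had a difference of 0.81 with it (adjusted p = 0.076). Armc6 had 1.13 CPM in library 339 against 9.03 to 23.7 CPM in the rest of t2, and Zfp296 0 against 11.1 to 20.1 CPM. Both fell when it was left out (adjusted p = 0.0052 and 0.0079).

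Other single libraries moved the number of calls by more. It was 350.0 without t6 341, 413 without t2 358, 484 without t6 368 and 545 without t2 334. Every fit that left out 1 library called 266 of the 838 genes, 63 higher and 203 lower, among them Hspa5, Hyou1, Hspa8, Hsp90ab1, Dbp, Per3, Nfil3 and Cyp2a5. In the fit of the 10 libraries alone, the filter, the scaling and the spread all came from these libraries. Of 13877 genes tested there, 46 were called, 8 higher and 38 lower (2337 at an unadjusted p under 0.05). Among them were 6 unfolded protein response and 6 heat shock genes. Of the clock list 3 higher and 1 lower were called there, of the tubulins 2, of ribosome biogenesis, of the ER translocon and COPII coat and of EGFR ligands and RAS feedback 1 each, and none of the synthetase, interferon, cell cycle, p53, STAT3 and NF-kB lists. DESeq2 on the same 10 libraries called 729. No gene was called for a different change in males and females (edgeR, 0 of 14847, 1021 at an unadjusted p under 0.05). With 2 males and 3 females a group, this cannot show that the changes were alike.

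**Figure D4:**
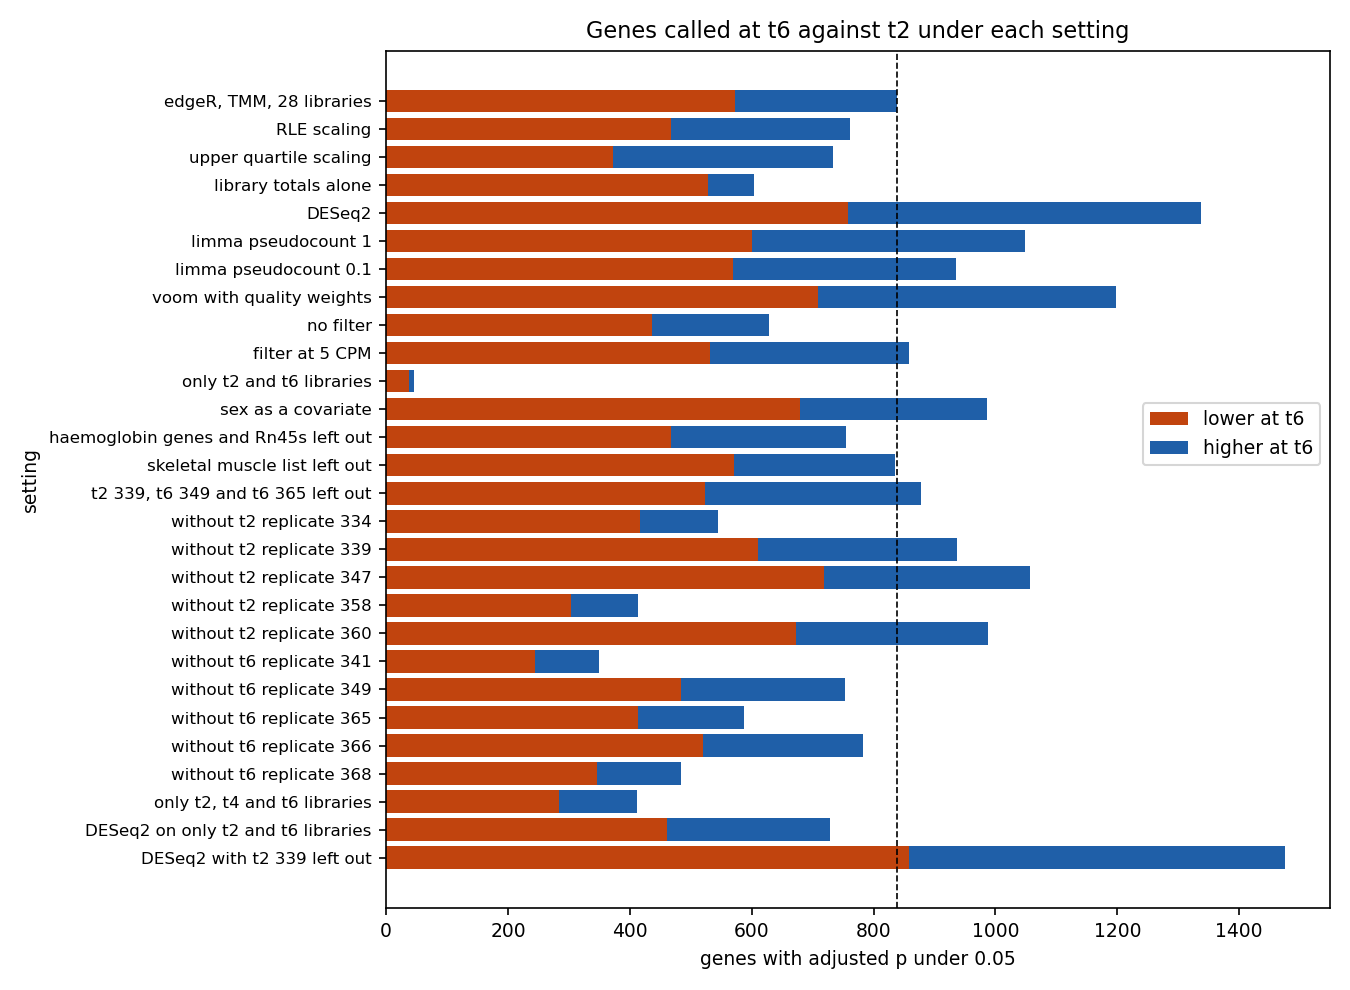
Number of genes with an adjusted p under 0.05 at t6 against t2 under each setting, lower genes in red and higher ones in blue stacked on them; the dashed line marks 838. The fit of the 10 t2 and t6 libraries alone gives 46 and DESeq2 with library 339 left out 1475.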

How the data were processed

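Poly-A RNA of tracheal brushings was sequenced, per the labels' protocols. The deposited knockout table holds estimated counts, although it is named for RPKM: 76.3% of values above 0 were whole within 0.01, and column sums differed. The authors' tools were Partek, Bowtie2 2.1.0 and STAR 2.4.1d with build mm10, per the submitters' processing notes; their roles, filters and use of strand are not given in the sources used here. No RPKM-based fit was needed.

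Counts were rounded, genes kept that reached 1 CPM in 5 or more of 28 libraries, and libraries scaled by TMM. The contrast t6 minus t2 was tested with edgeR 4.0.16 (R 4.3.3; robust quasi-likelihood, 1 mean per group, two-sided, Benjamini-Hochberg over genes, threshold 0.05), after a check on simulated data. DESeq2 1.42.0 and limma 3.58.1 were alternatives. Intervals from depth cover counting error only, so none are given for group means.

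The comparison, the gene lists and the tests were chosen with earlier results of these data known. Genes were named by rank: the smallest p and largest change in each direction, the smallest p in each list, and calls that library 339 decides. Genes whose values are given without a call were added beside them. Wild-type libraries were not used here.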

Additional observations from a re-analysis of the deposited data

Results flagged for a closer look

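Each of 156 groups of 5 values (a gene or library measure at t2 or at t6) was searched for a library far from the other 4, meaning a gap to its nearest neighbour above 0.71 of the whole range. Chance alone gives this in about 1 in 20 groups, and 25 were found. Some of the genes were chosen because library t2 339 decides their calls or for the size of their change, so neither this number nor the share of that library can be read against chance. Library t2 339 was high for Gprc5a at 7.70 CPM (others up to 1.24), Atp2a2 at 1041 CPM (others up to 804), Arntl at 56.3 CPM (others up to 30.8), Gins2 at 24.9 CPM (others up to 8.98), Sprr3 at 7.31 CPM (others up to 2.08), Fibin at 17.7 CPM (others up to 1.20), Hr at 83.8 CPM (others up to 29.1), Alg8 at 44.1 CPM (others up to 16.5) and Gnpda2 at 14.6 CPM (others up to 5.53). It was low for Sdf2l1 at 58.5 CPM (others from 75.9). This library also had 14283 genes above 0 counts, the lowest of t2, and 1.76% of its counts in haemoglobin genes, the highest of t2.

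Library t2 334 was far above the rest for Chil4 at 1173 CPM (others up to 168) and Cxcl1 at 24.4 CPM (others up to 3.90), and t2 358 for Pdia6 at 402 CPM (others up to 339). At t6, library 368 was high for Calr at 692 CPM, Fibin at 0.976 CPM, Upk3b at 12.9 CPM and Cyp2c65 at 1.92 CPM. Library t6 341 was low for Il4ra at 41.0 CPM and high for Gnpda2 at 18.0 CPM, and t6 366 was low for Irf9 at 43.9 CPM. Library t6 349 was high for Cry1 at 30.6 CPM, for Timp3 at 227 CPM and for the share of haemoglobin genes at 15.3%. The values of library 368 for Upk3b and of library 339 for Gins2, Hr and Alg8 are those on which the calls of these genes rest, and the calls of Chil4 and Cxcl1 were lost without t2 334 and without several other libraries.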

How the results depend on the processing

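The number of called genes, 838, was 1338 with DESeq2, 46 with only the t2 and t6 libraries, 412 with only the t2, t4 and t6 libraries, 1475 with DESeq2 without library 339, and 99 within males and 58 within females. Leaving out each library in turn gave 350.0 to 1056 calls. Higher genes, 265, numbered 76 with library totals alone, 580.0 with DESeq2, 447 with limma on log2(CPM + 1), 489 with voom and quality weights, 8 with only t2 and t6, 128 with t2, t4 and t6, 616 with DESeq2 without 339, 25 within males and 17 within females, and 106 to 338 without 1 library. Lower genes, 573, numbered 372 with upper quartile scaling, 38 with only t2 and t6, 284 with t2, t4 and t6, 74 within males and 41 within females, and 244 to 718 without 1 library. The causes were not tested, other than that fits of fewer libraries or of 1 sex have fewer samples. The fit without library 339, with 937 calls, became 1475 with DESeq2. A log2 difference reversed for Upk3b within males, -0.068, and for Zfp296 with limma on log2(CPM + 0.1), 0.49; neither was called there. Scaling moved the median of all genes from -0.03 (library totals) to 0.08 (upper quartile). Heat shock and unfolded protein response lists had no called member higher under any scaling, tool or left-out library listed here. No paired analysis was possible because the animal numbers differ between groups. Low counts limit Gprc5a, Awat1, Ucp1 and Upk3b, whose levels lay near or under 1 CPM in most libraries.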
